A study of Mus musculus with 12 samples.

Results

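Mitochondrial ribosomal proteins are the nuclear-encoded proteins of the mitoribosome, the ribosome inside mitochondria. They were taken here as the genes of the deposited table whose symbol starts with Mrpl or Mrps followed by a digit, with symbols containing -ps left out. The rule found 77 members among 14317 genes, and none of the symbols it met contained -ps. Of these, 50 code for proteins of the large subunit and 26 for proteins of the small subunit. Mrps18a and Mrps30 are placed in the large subunit despite their names. The remaining member, Mrps36, is now known as a subunit of the 2-oxoglutarate dehydrogenase complex and is kept because its symbol meets the rule. Mrpl53 was not analysed here.

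The mitoribosome makes a small set of hydrophobic proteins from the mRNAs of mitochondrial DNA, all of them subunits of the respiratory chain complexes or of ATP synthase. Its rRNAs come from mitochondrial DNA, whereas its proteins are translated in the cytosol and imported. Some of these proteins have counterparts in bacterial ribosomes and others are particular to mitochondria. In brain, neurons depend strongly on the ATP that this system supports, and loss of blood flow deprives mitochondria of oxygen.

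The tissue was the ischemic penumbra of the cortex on the operated side. One group of 6 mice underwent transient middle cerebral artery occlusion and reperfusion (tMCAO/R), with 60 min of occlusion and tissue taken after 24 h of reperfusion, and the other group of 6 mice was sham-operated (Sham). All are described as male C57BL/6J mice aged 8 weeks, with no transgene. The penumbra is a dissected region, and the labels name the tissue of both groups alike although Sham mice have no infarct. Poly(A) mRNA was sequenced with 1 library per mouse, and the deposited values are FPKM, which divide the fragments of a gene by its length and by the library total. The library totals lay between 13496273 and 15808212 fragments in Sham mice and between 13057288 and 14988265 in tMCAO/R mice.

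Several features of the libraries bear on every comparison below. The library of tMCAO/R mouse 4 stood apart, with a median Spearman correlation of 0.908 to its own group. The other 5 tMCAO/R libraries gave 0.964 to 0.974 and the Sham libraries gave 0.976 to 0.987. Ddx3y, a gene of the Y chromosome, was listed at 0 in all 6 Sham libraries and at 5.49 to 12.1 FPKM in the tMCAO/R libraries, which goes against the label of male mice in Sham. A sex difference and the surgery therefore cannot be told apart in these data. Markers of neighbouring regions also differed between groups. The 6 hippocampal markers summed to 167 to 262 FPKM in Sham mice and to 26.7 to 43.0 FPKM in tMCAO/R mice, and 5 of the 6 fell. All 6 striatal markers rose, with sums of 20.4 to 29.3 and 32.5 to 364 FPKM. Ttr, the choroid plexus transcript for transthyretin, had 30.7 to 1844 FPKM in Sham mice and 0 to 2.50 FPKM in tMCAO/R mice. Of 7 oligodendrocyte markers 5 fell, with sums of 593 to 1416 and 298 to 555 FPKM. Of 8 neuronal markers 3 rose and 1 fell, with sums of 728 to 859 and 762 to 1047 FPKM, of 7 astrocyte markers 1 rose and 2 fell, with sums of 323 to 366 and 277 to 329 FPKM, and of 6 microglial markers 1 rose and 2 fell, with sums of 92.0 to 120 and 38.97 to 116 FPKM. Of 6 endothelial markers 3 rose and 2 fell, with sums of 67.0 to 84.1 and 34.01 to 82.2 FPKM. Of 5 leukocyte markers 3 were tested and 1 fell, and the sums over all 5 were 8.83 to 77.2 and 3.37 to 17.2 FPKM. The part of these differences in the results below was not tested. In bulk tissue, fewer cells of a type and less RNA per cell cannot be told apart.

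Promoters are shown here because regulation of the mitoribosome genes is classically assigned to NRF1, to the ETS factor GABPA (NRF2) and to YY1, which bind near the start of many nuclear genes for mitochondrial proteins. RefSeq promoters (GRCm38.p6, 250 bases before to 50 after a start) were found for 68 of the 77 members, in 74 windows. The letters searched on both strands were GCATGCGC for the core of the NRF1 site, CCGGAAGT for the ETS core and AAGATGGCG for the YY1 core, and hits to the different cores could overlap. The first pair below belongs to the members with the smallest adjusted p. The next 3 were chosen after their values were seen, as one example for each core, with the letters of the core in capitals.
Mrps33, chr6:39810887-39811186, minus strand: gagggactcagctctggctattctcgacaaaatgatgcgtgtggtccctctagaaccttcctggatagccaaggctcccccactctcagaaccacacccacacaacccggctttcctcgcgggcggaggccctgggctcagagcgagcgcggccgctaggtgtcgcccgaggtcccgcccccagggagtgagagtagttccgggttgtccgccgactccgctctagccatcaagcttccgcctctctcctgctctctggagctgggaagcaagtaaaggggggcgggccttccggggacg
Mrpl55, chr11:59202236-59202535, plus strand: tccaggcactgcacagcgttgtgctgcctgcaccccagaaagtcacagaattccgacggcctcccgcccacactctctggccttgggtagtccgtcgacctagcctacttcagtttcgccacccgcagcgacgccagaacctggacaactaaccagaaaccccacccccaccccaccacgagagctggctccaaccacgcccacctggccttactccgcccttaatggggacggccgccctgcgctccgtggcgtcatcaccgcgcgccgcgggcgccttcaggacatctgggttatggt
Mrpl48, chr7:100583081-100583380, minus strand: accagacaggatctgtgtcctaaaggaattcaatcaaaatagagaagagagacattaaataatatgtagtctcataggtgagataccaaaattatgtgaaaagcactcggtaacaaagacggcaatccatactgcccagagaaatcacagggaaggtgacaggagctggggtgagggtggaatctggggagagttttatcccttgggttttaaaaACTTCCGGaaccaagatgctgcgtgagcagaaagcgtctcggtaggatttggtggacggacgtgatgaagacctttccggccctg
Mrps18a, chr17:46110754-46111053, plus strand: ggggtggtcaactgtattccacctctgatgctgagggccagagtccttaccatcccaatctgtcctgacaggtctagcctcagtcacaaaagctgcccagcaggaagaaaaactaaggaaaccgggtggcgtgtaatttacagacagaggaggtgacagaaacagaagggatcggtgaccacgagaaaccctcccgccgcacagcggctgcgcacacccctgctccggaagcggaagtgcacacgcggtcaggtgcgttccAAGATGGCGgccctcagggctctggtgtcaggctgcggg
Mrpl9, chr3:94443086-94443385, plus strand: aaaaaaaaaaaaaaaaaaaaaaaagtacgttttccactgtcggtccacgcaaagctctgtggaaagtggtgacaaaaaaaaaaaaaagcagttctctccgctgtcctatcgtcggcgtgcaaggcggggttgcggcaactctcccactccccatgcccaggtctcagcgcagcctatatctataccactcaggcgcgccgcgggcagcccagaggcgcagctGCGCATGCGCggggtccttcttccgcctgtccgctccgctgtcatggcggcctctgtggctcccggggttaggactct

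Neither of the first pair holds any of the cores. The window of Mrpl48 is 1 of 4 that the table gives for this gene, and it holds the ETS core on the opposite strand 35 to 28 bases before the start. It is the most downstream of the 4, while the most upstream lies at chr7:100608252-100608551 and lacks the core. Mrps18a holds the YY1 core 11 to 19 bases after the first transcribed base. In Mrpl9 a pair of NRF1 cores on opposite strands overlap, which gives 10 capitals. Over all member windows the NRF1 core was present in 8 of 74 (10.8%), the ETS core in 12 (16.2%) and the YY1 core in 8 (10.8%). Among all 32851 promoters of the table the shares were 2.71%, 3.89% and 1.40%. Among the 11968 promoters of genes that entered the test below, the shares were 5.08%, 7.60% and 2.97%. A match is a description of letters and not of a bound site.

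The comparison of tMCAO/R with Sham asked which transcripts of the mitoribosome differ in the penumbra after ischemia and reperfusion. Transcripts for 33 of 76 tested members fell and none rose. The falls were moderate, with mean FPKM in tMCAO/R mice at 0.336 to 0.770 times that in Sham mice (median 0.624). The largest was that of Mrpl55, a protein of the large subunit. The one with the smallest adjusted p was that of Mrps33, a protein particular to the mitochondrial small subunit. At the other end, Mrps30, Mrpl9 and Mrpl37 had nearly equal means in both groups.

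The test was limma on log2(FPKM + 1) over the 11743 genes that reached 0.5 FPKM in 6 or more libraries. Fell and rose are used for a Benjamini-Hochberg adjusted p below 0.01 over all of these genes, with any fold change. By this rule 17.8% of all tested genes fell and 17.8% rose, against 43.4% and 0% of the members. At an unadjusted p below 0.05, 48 members were lower and 1 was higher in tMCAO/R mice. The share of all tested genes at this cut is not given here, so these counts have no background. The log2 fold change (log2FC) was negative for 68 members and positive for 8, with a median of -0.33 beside -0.01 over all tested genes. In 20 members every tMCAO/R mouse was below every Sham mouse, and in 0 every tMCAO/R mouse was above (13.2% and 13.8% of all tested genes). Of these 20, 18 also fell by the test. No member passed the |log2FC| of 2 that the study used for its DEGs, at which 0.255% of tested genes fell, and the log2FC of the 33 ran from -1.33 to -0.26. The addition of 1 FPKM understates the change of genes with low FPKM.

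**Figure D1:**
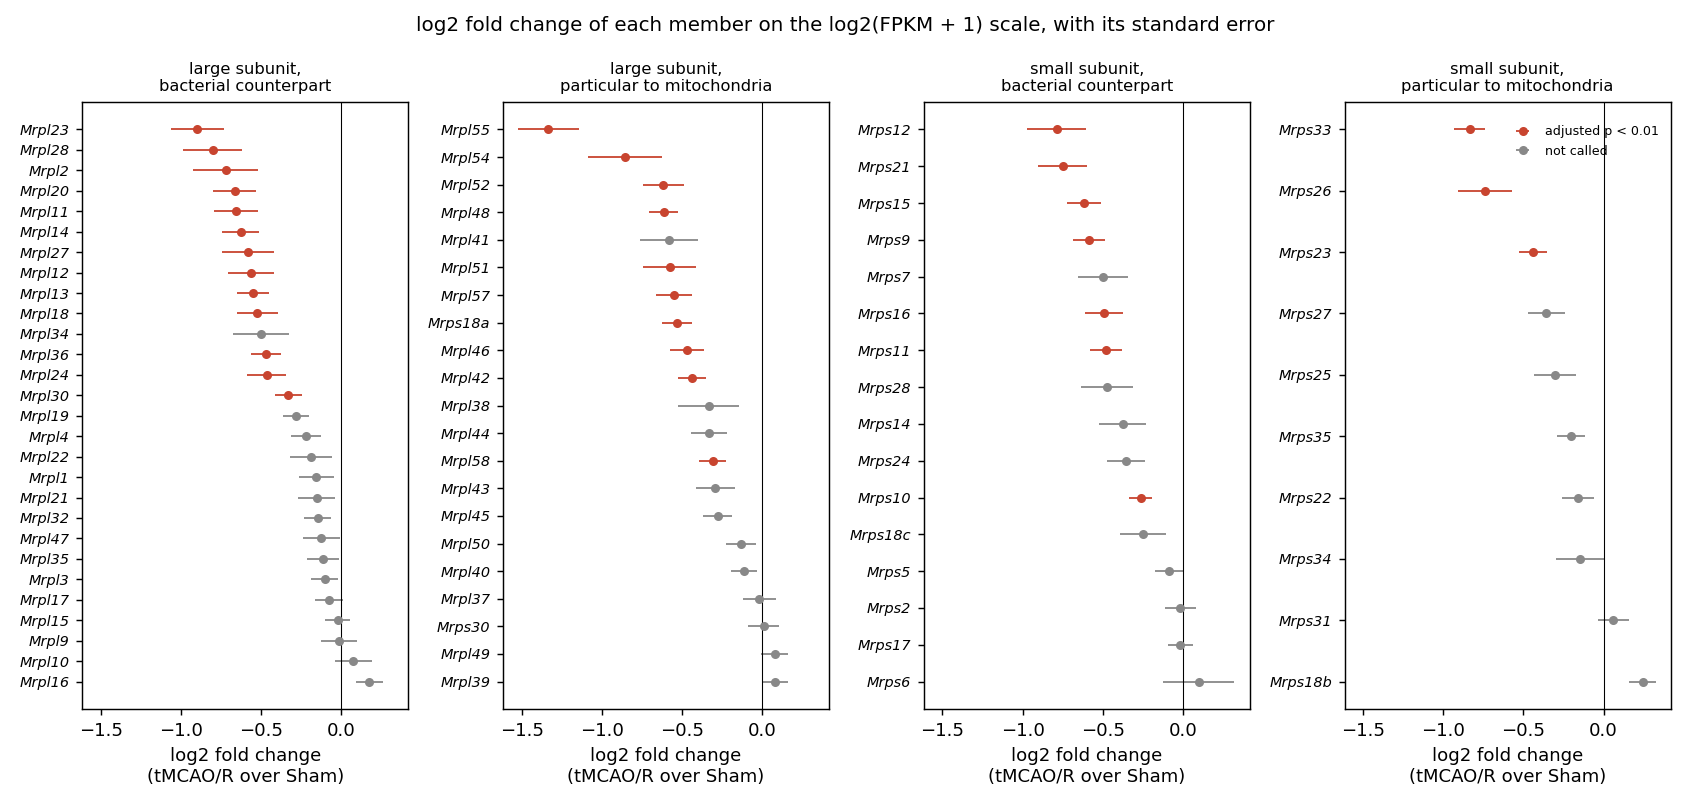
log2FC of tMCAO/R over Sham on the log2(FPKM + 1) scale (x axis) for each tested subunit member, by subunit and by whether a bacterial counterpart exists, with bars for the standard error and red for an adjusted p below 0.01 (limma, n = 6 mice per group). All 33 red points lie left of 0, from -1.33 for Mrpl55 to -0.26 for Mrps10. Mrpl55, planned among the bacterial counterparts, is drawn with the proteins particular to mitochondria.

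A second test on whole fragments, which were recovered from the FPKM steps, gave a similar count. With limma-voom 32 of 77 members were lower at an adjusted p below 0.01 and 0 were higher, where 16.5% of the genes tested this way were lower, and all 32 were among the 33. Without tMCAO/R mouse 4, 38 of 76 members fell (21.3% of all genes), and these held all 33. Without Sham mouse 6, 38 fell as well (17.3% of all genes).

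Mrps33 and Mrpl55 led the list. Mrps33 (ENSMUSG00000029918, 3 exons, chromosome 6, 39777832 to 39787922 in GRCm39) had 15.2, 18.6 and 21.3 FPKM (lowest, median and highest) in Sham mice and 8.27, 9.69 and 11.2 FPKM in tMCAO/R mice. The groups did not overlap, and the log2FC was -0.84 ± 0.10 (SE, n = 6 per group, limma adjusted p = 1.2e-05). A processed pseudogene, Gm5776, is 99.7% identical to it over 321 bases, and reads from the 2 could be split by the counting. Mrpl55 (ENSMUSG00000036860, 3 exons, chromosome 11, 59093303 to 59098353) had 6.42, 7.36 and 8.15 FPKM in Sham mice. In tMCAO/R mice it had 0.720, 2.69 and 3.45 FPKM, so the highest of these was below the lowest Sham value. Its log2FC was -1.33 ± 0.19 (limma adjusted p = 6.3e-05). The lowest value, from 37 fragments, belonged to tMCAO/R mouse 4, and without this mouse the log2FC was -1.15 ± 0.11.

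Among the other 8 members with the smallest adjusted p, 4 code for proteins of the large subunit with a bacterial counterpart. Mrpl23, a protein at the exit of the peptide tunnel, had 4.66, 6.34 and 7.30 FPKM in Sham mice and 1.25, 3.44 and 3.67 FPKM in tMCAO/R mice. The groups did not overlap, and its log2FC was -0.90 ± 0.17 (limma adjusted p = 0.00051). Mrpl23-ps1 is identical to it over 540 bases. Mrpl13 had 4.19, 5.45 and 6.29 FPKM in Sham mice and 3.10, 3.25 and 4.37 FPKM in tMCAO/R mice, and the groups overlapped by tMCAO/R mouse 2. Mrpl14 had 7.56, 10.3 and 11.4 FPKM in Sham mice and 5.00, 6.11 and 7.62 FPKM in tMCAO/R mice, with a narrow overlap. Mrpl36, one of the smallest proteins of the subunit in bacteria, had 9.70, 10.4 and 11.9 against 6.04, 7.48 and 8.47 FPKM with no overlap. Their log2FC were -0.55, -0.63 and -0.47.

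The remaining 4 were Mrpl48, Mrps18a, Mrps9 and Mrps15. Mrpl48, particular to the mitochondrial large subunit, had 4.87, 5.17 and 5.42 FPKM in Sham mice and 2.47, 3.05 and 3.97 FPKM in tMCAO/R mice (log2FC -0.61 ± 0.09, limma adjusted p = 8.4e-05). Its pseudogene Mrpl48-ps is 98.1% identical over 636 bases. Mrps9 had 3.47, 5.03 and 5.42 FPKM in Sham mice and 2.49, 2.70 and 3.42 FPKM in tMCAO/R mice, and the groups were separate by a narrow margin between Sham mouse 6 and tMCAO/R mouse 2. Mrps15 had 11.0, 15.5 and 17.6 FPKM in Sham mice and 8.95, 9.25 and 10.4 FPKM in tMCAO/R mice, again with no overlap. Both are small subunit proteins with a bacterial counterpart, and their log2FC were -0.59 and -0.61.

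The other members that fell in the large subunit had log2FC from -0.85 to -0.31. Mrpl28, a counterpart of bacterial L28, had 8.22, 11.99 and 12.8 FPKM in Sham mice and 2.84, 6.80 and 8.21 FPKM in tMCAO/R mice, so the groups were separate by a narrow margin (log2FC -0.80 ± 0.18, limma adjusted p = 0.0024). Mrpl20, which takes part in the early folding of the large rRNA in bacteria, had 9.52, 13.8 and 16.9 FPKM in Sham mice and 5.87, 8.51 and 9.94 FPKM in tMCAO/R mice. Mrpl2 had 10.2, 14.4 and 15.04 against 3.30, 9.37 and 10.7 FPKM. In both of these the groups overlapped only between Sham mouse 6 and tMCAO/R mouse 2.

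Mrpl54 had 14.8, 19.6 and 20.8 FPKM in Sham mice and 3.58, 11.6 and 13.7 FPKM in tMCAO/R mice, again without overlap. This gene fell with a log2FC of -0.85 ± 0.23, but 94.4% of its exonic bases are shared with Matk, and reads of the 2 cannot be told apart without strand. Mrpl57 had 11.3, 14.1 and 15.8 FPKM against 7.04, 9.31 and 10.1 FPKM, and Mrpl42 had 6.87, 7.35 and 8.36 FPKM against 4.30, 5.07 and 6.24 FPKM, both without overlap and with log2FC of -0.55 and -0.44. Mrpl30 had a small but separate difference, 7.55, 8.84 and 10.3 FPKM against 6.24, 6.71 and 7.42 FPKM (log2FC -0.33 ± 0.08, limma adjusted p = 0.0049).

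In the small subunit Mrps12, Mrps21 and Mrps26 had the largest falls after Mrps33. Mrps12 had 17.9, 20.3 and 22.9 FPKM in Sham mice and 5.30, 12.2 and 15.6 FPKM in tMCAO/R mice. Mrps21, a small protein with a bacterial counterpart, had 16.6, 22.2 and 25.6 FPKM in Sham mice and 8.80, 11.96 and 18.4 FPKM in tMCAO/R mice, with overlap. Mrps26, particular to mitochondria, had 10.3, 15.4 and 16.3 FPKM in Sham mice and 4.32, 9.29 and 9.97 FPKM in tMCAO/R mice. The log2FC of the 3 were -0.79, -0.75 and -0.74. Mrps23 had 8.08, 9.58 and 11.3 FPKM against 6.12, 6.93 and 7.42 FPKM with no overlap (log2FC -0.44 ± 0.09, limma adjusted p = 0.00094), but was not called when a trend on gene length was subtracted (log2FC -0.06, limma adjusted p = 0.60).

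Mrps11 and Mrpl46 are the only members that overlap each other, head to head on chromosome 7 (78432867 to 78442739, plus strand, and 78424922 to 78433279, minus strand, in GRCm39), and both fell. Mrpl46 had 13.4, 15.96 and 18.5 FPKM in Sham mice and 9.51, 11.2 and 14.3 FPKM in tMCAO/R mice. Mrps11, which lines the path of the mRNA in bacteria, had 2.78, 4.14 and 4.67 against 2.17, 2.62 and 2.95 FPKM. Their log2FC were -0.47 ± 0.11 and -0.48 ± 0.10, and the shared part is 9.95% of the exonic bases of Mrpl46 and 5.75% of those of Mrps11. With the length trend subtracted neither was called (log2FC -0.10 for Mrpl46 and -0.26 for Mrps11).

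Mrps27 and Mrpl44 had no overlap between groups and did not pass the test. Mrps27, a pentatricopeptide repeat protein, had 5.58, 6.27 and 8.07 FPKM in Sham mice and 3.42, 5.40 and 5.55 FPKM in tMCAO/R mice (log2FC -0.36 ± 0.12, limma adjusted p = 0.019). Mrpl44 had 10.7, 12.1 and 12.6 against 6.27, 9.65 and 10.5 FPKM (log2FC -0.33 ± 0.11, limma adjusted p = 0.022). Of the 8 members with a positive log2FC, Mrps18b and Mrpl16 were highest. Mrpl16 had 3.98, 4.596 and 5.42 FPKM in Sham mice and 4.80, 5.28 and 5.73 FPKM in tMCAO/R mice, with a wide overlap (log2FC 0.17 ± 0.08, limma adjusted p = 0.093). Mrps6 varied widely within both groups, 2.63 to 6.27 FPKM in Sham mice and 2.98 to 8.66 FPKM in tMCAO/R mice, and its log2FC of 0.10 had a standard error of 0.22.

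**Figure D2:**
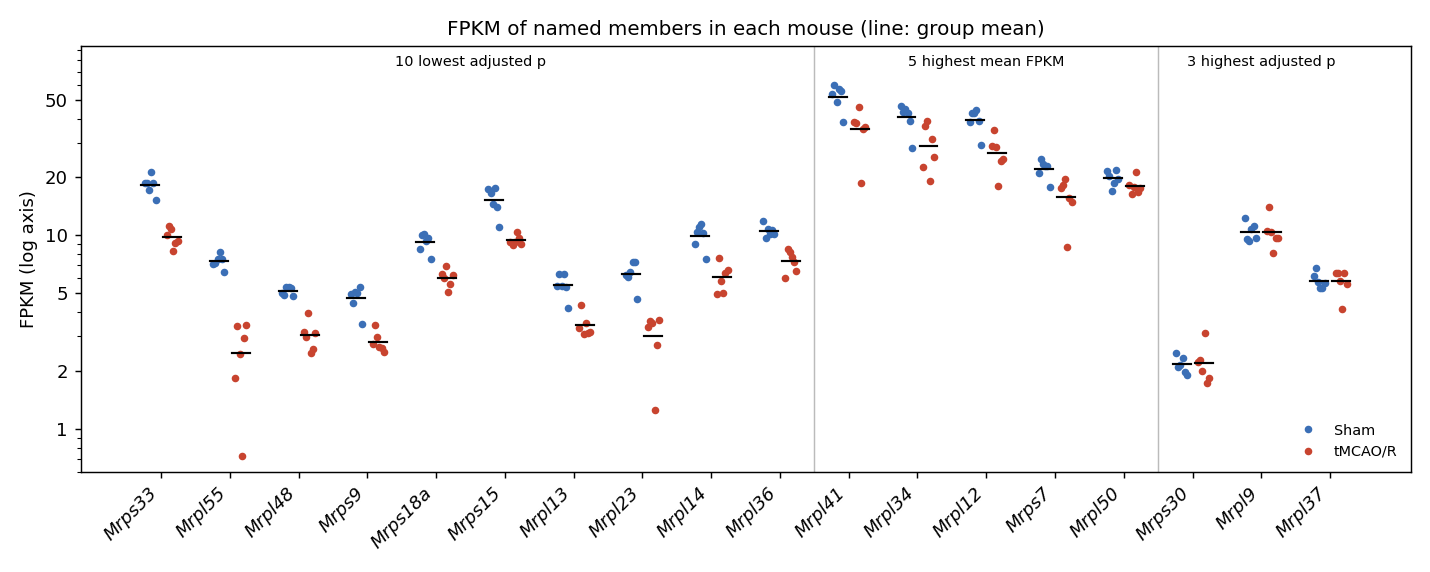
FPKM (log axis) of 18 named members in each of 6 Sham mice (blue) and 6 tMCAO/R mice (red), with a line at each group mean. In Mrps33 and Mrpl55 the groups are apart, in Mrps30, Mrpl9 and Mrpl37 they overlap throughout, and the lowest points of Mrpl55 (0.720 FPKM) and Mrpl23 (1.25 FPKM) belong to tMCAO/R mouse 4.

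The falls were spread over both subunits. Of the large subunit 23 of 49 tested members fell (median log2FC -0.33), and of the small subunit 10 of 26 (median -0.36). Among large subunit proteins listed with a bacterial counterpart 13 of 28 fell and among those listed as particular to mitochondria 10 of 21 fell. Mrpl55, planned with the bacterial counterparts, was counted with those particular to mitochondria, so both counts depend on that choice. In the small subunit the counts were 7 of 16 and 3 of 10. No difference between these groups of genes was tested.

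Calls were mixed among the proteins at the working centres of the ribosome, and differences between members were not tested. Mrps12, the counterpart of the bacterial decoding protein S12, fell with a log2FC of -0.79, whereas Mrps5 had 4.28, 4.48 and 4.59 FPKM in Sham mice and 3.07, 4.23 and 5.02 FPKM in tMCAO/R mice and was not called. Mrpl2 and Mrpl27, whose bacterial counterparts reach the peptidyl transferase centre, fell with log2FC of -0.72 and -0.58. Mrpl3, another protein near that centre, had a log2FC of -0.10 and was not called. Mrpl11 and Mrpl12 of the stalk that recruits translation factors fell (log2FC -0.66 and -0.56), while Mrpl10, which anchors Mrpl12, had a log2FC of 0.07. Mrpl24 at the tunnel fell (log2FC -0.47), and Mrpl45, which lies at the tunnel exit by the inner membrane, had a log2FC of -0.28 and was not called. Mrpl58, a peptidyl-tRNA hydrolase that rescues stalled mitoribosomes, fell with a log2FC of -0.31.

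Of the 5 members with the highest mean FPKM only Mrpl12 passed the test. It had 29.2, 40.8 and 44.2 FPKM in Sham mice and 18.04, 26.7 and 35.0 FPKM in tMCAO/R mice (log2FC -0.56 ± 0.14, limma adjusted p = 0.0051). Mrpl41 had 38.4, 54.5 and 59.9 FPKM in Sham mice and 18.5, 37.1 and 45.9 FPKM in tMCAO/R mice, with a log2FC of -0.58 ± 0.18 (limma adjusted p = 0.015). Mrpl34 and Mrps7 each had a log2FC of -0.50 (limma adjusted p = 0.026 and 0.016). Sham mouse 6 was the lowest of its group in each of these 4 genes, and so was tMCAO/R mouse 4 in its own. Mrpl50 had 16.8, 19.9 and 21.8 FPKM in Sham mice and 16.4, 17.6 and 21.3 FPKM in tMCAO/R mice, so the groups overlapped almost fully.

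The members with the highest adjusted p had a log2FC near 0. Mrps30 had 1.90, 2.12 and 2.46 FPKM in Sham mice and 1.72, 2.10 and 3.14 FPKM in tMCAO/R mice (log2FC 0.01 ± 0.10). Mrpl9 had 9.34, 10.2 and 12.2 FPKM in Sham mice and 8.13, 10.1 and 14.0 FPKM in tMCAO/R mice (log2FC -0.02 ± 0.11). Mrpl37 had 5.33, 5.69 and 6.78 FPKM in Sham mice and 4.14, 6.09 and 6.40 FPKM in tMCAO/R mice (log2FC -0.02 ± 0.10). Mrpl33 was below the minimum, at 0.259 to 0.558 FPKM in Sham mice and 0.200 to 0.312 FPKM in tMCAO/R mice, from 35 to 104 fragments per library.

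The 3 paralogs of the bacterial protein S18 did not share the same call, and differences between them were not tested. Mrps18a, now placed in the large subunit, fell from 7.57, 9.46 and 10.1 FPKM in Sham mice to 5.11, 6.12 and 6.96 FPKM in tMCAO/R mice with no overlap (log2FC -0.53 ± 0.09, limma adjusted p = 0.00031). Mrps18b had 0.343, 0.494 and 0.626 FPKM in Sham mice and 0.524, 0.745 and 1.07 FPKM in tMCAO/R mice, the most positive log2FC of all members at 0.24 ± 0.08 (limma adjusted p = 0.023, not called). It rested on 28 to 49 and 44 to 79 fragments, and its pseudogene Gm13552 is 99.8% identical over 417 bases. Mrps18c, which holds the place of S18 in the small subunit, had 0.767, 1.44 and 1.61 FPKM in Sham mice and 0.323, 0.903 and 1.58 FPKM in tMCAO/R mice and was not called. Of its exonic bases 84.3% are shared with other genes.

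The level of the members as a whole varied between mice. Their summed FPKM was 797, 827, 765, 815, 784 and 619 in Sham mice 1 to 6 and 552, 658, 600, 452, 558 and 536 in tMCAO/R mice 1 to 6. The groups overlapped in this sum, because Sham mouse 6 lay below tMCAO/R mouse 2. Sham mouse 6 was the lowest of its group for 59 of the 77 members, and tMCAO/R mouse 2 was the highest of its group for 42. The library of tMCAO/R mouse 4 was the lowest of its group for 37 members and the highest for 14.

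The mRNAs that these ribosomes translate and the short genes of the library varied beside them. Mitochondrial mRNAs made up 5.29% to 8.502% of fragments in Sham mice, lowest in Sham mouse 6, and 2.85% to 4.66% in 5 of the tMCAO/R mice but 8.68% in tMCAO/R mouse 4. The 2350 tested genes with the shortest exons (at most 3736 bases in union) deviated from their Sham means by a median of -0.13 on the log2 scale in Sham mouse 6, against -0.01 to 0.08 in the other Sham mice. In tMCAO/R mice this deviation was -0.09 to -0.53, with mouse 2 at the upper and mouse 4 at the lower end. The members followed the same order at both ends, with median deviations of -0.16 in tMCAO/R mouse 2 and -0.46 in tMCAO/R mouse 4.

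**Figure D3:**
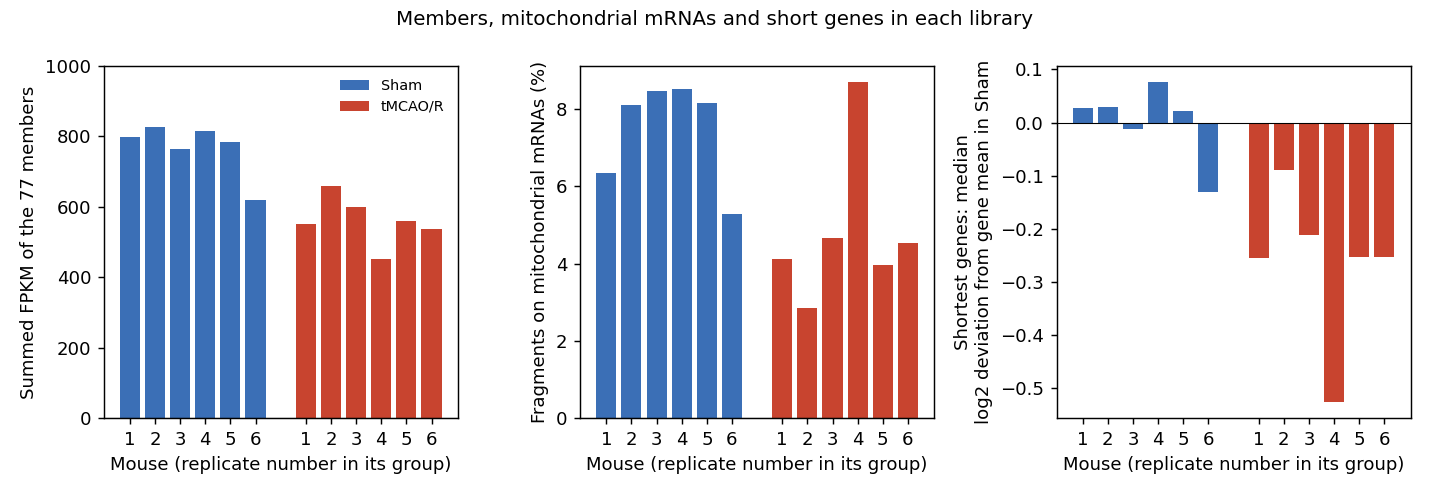
Each bar is 1 mouse, blue for Sham and red for tMCAO/R, showing the summed FPKM of the 77 members (left), the percent of fragments on mitochondrial mRNAs (middle) and the median deviation of the 2350 shortest genes from their Sham means on the log2 scale (right). Sham mouse 6 is low in all 3 panels, and tMCAO/R mouse 4 has the lowest sum (452) and short-gene deviation (-0.53) but a high mitochondrial share (8.68%).

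Transcript length accompanied the fall. By the length of the canonical transcript in GENCODE M39, 15 of the 26 shortest members (555 to 1398 bases) fell, 10 of the 25 in the middle (1417 to 2896 bases) and 8 of the 25 longest (2904 to 7366 bases). Over all tested genes in the same 3 ranges, 43.4%, 23.8% and 12.2% fell, with median log2FC of -0.41, -0.16 and 0.07. The medians of the members were -0.47, -0.33 and -0.20. Across genes, which are not independent replicates, Spearman's rho between canonical length and log2FC was 0.25 over the 76 members and 0.41 over 11726 genes, all measured in the same libraries. A trend on gene length was subtracted in each library before the test. The length used there was the union of exons, not the canonical transcript. Spearman's rho between union length and log2FC was 0.25 over the members and 0.30 over all genes. In this fit 22 members fell and 2 rose, where 17.2% of all genes fell and 17.3% rose. The median log2FC of the members in it was -0.20. No trend on canonical length was subtracted. Of the 33 members 20 also fell in that fit, and the members that rose in it were Mrps18b and Mrpl49. The 13 that did not were Mrpl2, Mrpl12, Mrpl18, Mrpl27, Mrpl28, Mrpl36, Mrpl46, Mrpl51, Mrpl52, Mrpl58, Mrps11, Mrps12 and Mrps23, with log2FC from -0.46 (Mrpl51) to -0.06 (Mrps23) in it. In contrast, Mrpl48 and Mrps9 had log2FC of -0.68 and -0.72 with the trend on union length subtracted. Their exons span 8450 and 12380 bases in union, but their canonical transcripts have 4324 and 1893 bases. The cause of the length trend was not tested.

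**Figure D4:**
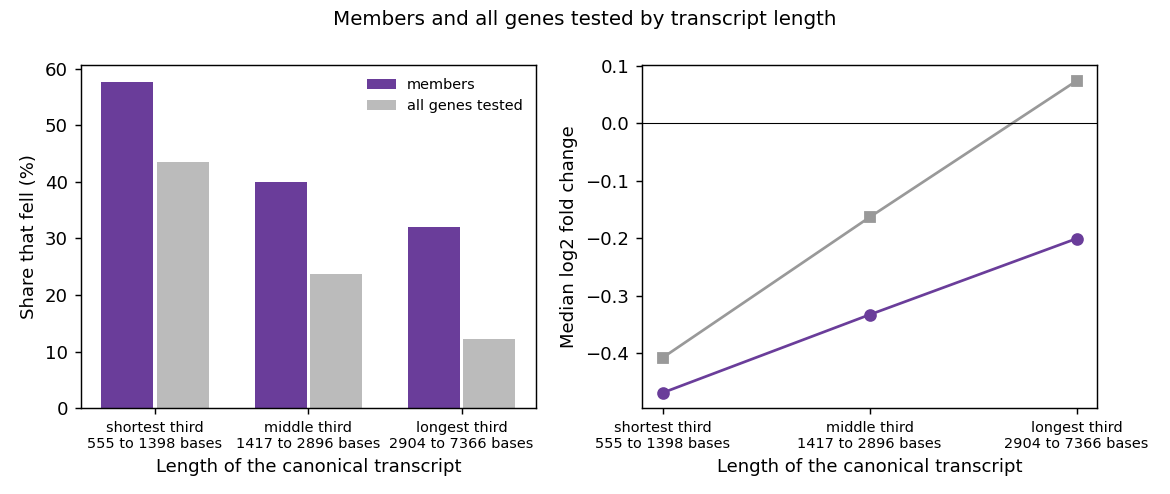
Share of genes that fell (left, percent) and median log2FC (right) for members and for all tested genes in 3 ranges of canonical transcript length. In both sets the shares are highest and the medians lowest in the shortest range, where 15 of 26 members and 43.4% of all genes fell.

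Of the 7 tested members whose promoter holds the NRF1 core, 0 fell, also with limma-voom, and 0 were lower at an unadjusted p below 0.05. These were Mrpl9, Mrpl10, Mrpl17, Mrpl22, Mrpl32, Mrpl39 and Mrps18b, with log2FC from -0.19 to 0.24. Mrpl33, below the minimum of the main test, holds the NRF1 core too. Its limma-voom log2FC was -0.50 and it was not called (limma-voom adjusted p = 0.10). Of the 60 members with a promoter but without this core 31 fell. With the ETS core 6 of 11 fell, among them Mrpl48, Mrps26 and Mrpl52, and with the YY1 core 4 of 8 fell, among them Mrps18a and Mrpl42. A member with several windows was counted when any of them held the core. The other windows of Mrpl48 lack the ETS core. These counts are small and are given as a description with no test. The split of calls by core was not planned in advance. How many of all tested genes with each core fell is not given here, so the counts have no background.

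The levels of members should be compared only with care for the length used. The length implied by the FPKM was 0.270 to 16.1 times the canonical transcript length of a member (median 2.11), so Mrpl23, at 6.33 FPKM in Sham mice as deposited, came to 71.2 per kilobase of its canonical transcript, while Mrpl41, at 52.1 FPKM, came to 38.98. The order of levels between members thus differs between these scales. The comparison of groups within a gene depends on the length only through the added 1 FPKM and the minimum of 0.5 FPKM. Mrpl33, left out by that minimum at a mean of 0.377 FPKM in Sham mice, came to 6.07 per kilobase of its canonical transcript. Near-identical copies (at least 95% identity over at least 50% of the copy) were annotated for 17 members. Beside those named above they were found for Mrpl27, Mrpl42, Mrpl51, Mrps10, Mrps16 and Mrps26, which fell, and for the uncalled Mrpl41, Mrpl21, Mrpl22, Mrpl32, Mrps5, Mrps25 and Mrps36. In the last 6 of these, log2FC lay between -0.30 and -0.09. More than 10% of exonic bases were shared with another gene in 33 members, 10 of which fell. The highest share was that of Mrpl54.

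Other genes of the same pathway were described from lists chosen by function. Of 5 further mitoribosome proteins only Chchd1 fell, from 7.75, 10.9 and 12.5 FPKM in Sham mice to 5.09, 7.21 and 9.91 FPKM (log2FC -0.52 ± 0.15), and Aurkaip1 had a log2FC of -0.49 and was not called. Of 24 tested factors for assembly and rRNA modification 3 fell and 0 rose. Among these Rpusd4, a pseudouridine synthase of mitochondrial rRNA, had 2.60, 3.10 and 3.26 FPKM in Sham mice and 0.423, 0.831 and 1.61 FPKM in tMCAO/R mice. Its groups did not overlap (log2FC -1.14 ± 0.13, limma adjusted p = 7.3e-06), and Mettl17 fell by 0.25 on the log2 scale. Of 15 translation factors Gfm2 and Guf1 fell (log2FC -0.31 and -0.33) and Taco1, an activator of the translation of the mt-Co1 mRNA, rose. Taco1 had a log2FC of 0.45 (limma adjusted p = 0.0092) and was not called with limma-voom (limma-voom adjusted p = 0.020). Tufm, the elongation factor Tu, had a log2FC of -0.26 and was not called.

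Of 19 genes for tRNA charging 2 fell and 1 rose (4 and 0 with the length trend subtracted). Those that fell were Gatb of the glutamyl-tRNA amidotransferase and Tars2, the threonyl-tRNA synthetase, with log2FC of -0.46 and -0.40, and Gatc had a log2FC of -0.10. Of 9 genes for transcription and upkeep of mitochondrial DNA only Ssbp1, the single-stranded DNA binding protein, fell (log2FC -0.33), and Tfam had a log2FC of -0.11. Of 8 transcriptional regulators 2 rose. Ppargc1a, the coactivator PGC-1alpha, had 1.51, 1.80 and 2.25 FPKM in Sham mice and 2.82, 3.64 and 5.06 FPKM in tMCAO/R mice (log2FC 0.68 ± 0.11, limma adjusted p = 0.00024). Esrrg, an orphan nuclear receptor, had 0.429, 0.498 and 0.592 FPKM in Sham mice and 1.17, 1.31 and 1.90 FPKM in tMCAO/R mice (log2FC 0.70 ± 0.08). Neither overlapped between groups, while Yy1 had a log2FC of 0.06 and was not called.

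All 12 mitochondrial mRNAs listed had a negative log2FC (median -0.69), and 3 fell. The mRNA mt-Atp8 was not among them. Their mean in Sham mice ran from 2.89 FPKM for mt-Nd4l to 19994 FPKM for mt-Co1, and the cause of this spread was not tested. The mRNA mt-Co1, for cytochrome c oxidase subunit 1, had 14254, 21523 and 23385 FPKM in Sham mice and 6593, 10354 and 17335 FPKM in tMCAO/R mice (log2FC -0.90 ± 0.21). At a far lower level, mt-Atp6 had 73.0, 98.2 and 116 FPKM in Sham mice and 31.2, 48.7 and 102 FPKM in tMCAO/R mice (log2FC -0.87 ± 0.22). Without tMCAO/R mouse 4, 11 of the 12 fell, and with the length trend subtracted 0 fell (median -0.23). Lists for cytosolic ribosomal proteins and for complex I, taken by symbol alone, had larger shares that fell than the members. The first rule (Rpl, Rps or Rplp followed by a digit, and Rpsa) also admits kinase genes with Rps6k symbols. The second (Ndufa, Ndufb, Ndufc, Ndufs and Ndufv) also admits assembly factors with Ndufaf symbols. Genes of these kinds were not separated out. Of 89 tested genes on the first list 73 fell and 1 rose (median log2FC -0.83). Of 46 on the complex I list 25 fell and 0 rose (median -0.51). With the length trend subtracted 62 genes of the first list and 20 of the complex I list fell.

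**Figure D5:**
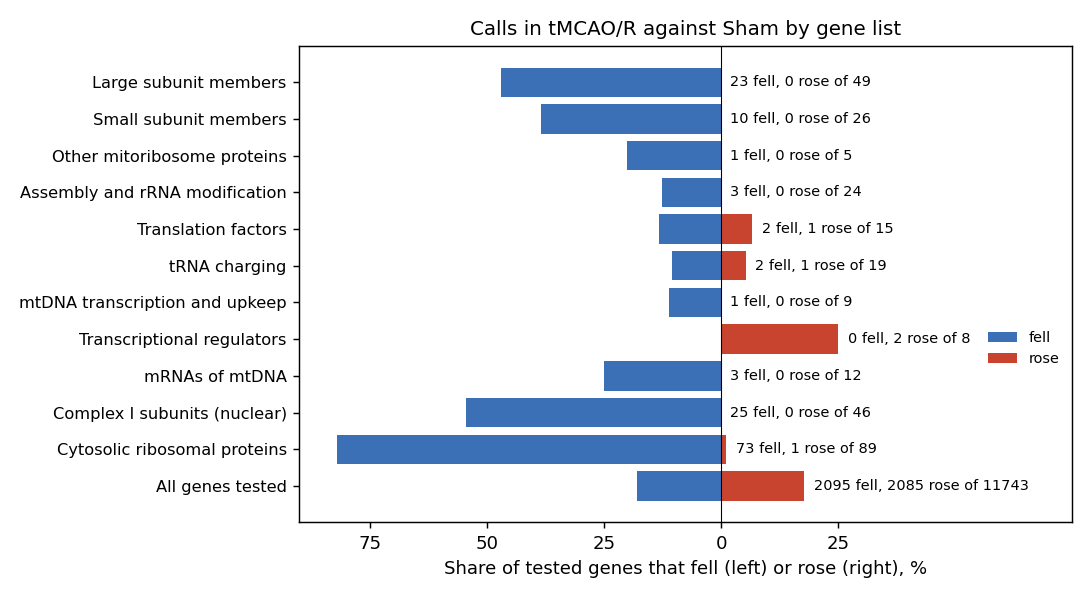
Percent of tested genes in each list that fell (blue, left of 0) or rose (red, right of 0) in tMCAO/R against Sham at an adjusted p below 0.01 (limma, n = 6 mice per group), with the counts beside each bar. The share that fell is 46.9% for the large and 38.5% for the small subunit. These shares are above those for assembly factors (12.5%), translation factors (13.3%) and all genes (17.8%). They are below that for the list of cytosolic ribosomal proteins (82.0%). The lists for cytosolic ribosomal proteins and complex I were taken by symbol, which also admits some kinase and assembly factor genes.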

How the data were processed

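Poly(A) mRNA from the ischemic penumbra of 6 Sham and 6 tMCAO/R mice was sequenced in paired ends. Per the labels and the methods, the authors used fastp (version not given in the sources used here), aligned reads to GRCm39 with HISAT2 2.2.1, deposited FPKM made with HTSeq 2.0.2, and used DESeq2 1.24.0 for their own comparison, which is not part of the table. Strand setting, annotation release and the treatment of multi-mapped reads are not given in the sources used here. The FPKM were not scaled further.

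Genes that reached 0.5 FPKM in 6 or more libraries were compared with limma 3.58.1 (lmFit, eBayes with trend, two-sided) in R 4.3.3. The scale was log2(FPKM + 1), and p-values were adjusted by Benjamini-Hochberg over all of them. Whole fragments were recovered from the FPKM steps for 14317 genes (tolerance 1e-05), and their total sets the precision, 14 to 1321 fragments per member and library. limma-voom used these fragments where a gene reached 10 in 6 or more libraries. Positions and lengths come from GENCODE M39 (GRCm39), copies from BLAST 2.17.0, and promoters from RefSeq (GRCm38.p6). Python 3.11.15 was used for summaries.

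The members and lists were chosen with earlier results of these data known. Mrpl55, planned with the bacterial counterparts, was counted with the proteins particular to mitochondria after the values were seen. The counts of both large subunit classes depend on that choice. Members were named by a rule: the 10 with the smallest adjusted p among those that fell, the 5 with the highest mean FPKM, the 3 with the highest adjusted p, those below the minimum, those with a near-identical copy and the 3 Mrps18 genes, and from each other list the 2 with the smallest adjusted p and the 1 with the highest FPKM. Other members in the text were chosen after their values were seen. Labels do not say that mice were handled apart, so p-values measure the spread between these samples. Alternatives covered the pseudocount, the minimum, quantile normalization, a length trend, the thresholds, the fragments, a replicate block and each library in turn.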

Additional observations from a re-analysis of the deposited data

Results flagged for a closer look

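In groups of 6 mice, a value was picked out when its gap to the nearest other mouse was large against the whole range of its group (Dixon's test at the 95% level). This was met in 8 of 68 groups tested, and chance alone picks about 1 in 20. Values of Sham mouse 6 were picked out in 3 members: 10.3 FPKM of Mrps26 (the others 14.6 to 16.3), 6.14 FPKM of Mrps16 (8.42 to 9.30) and 14.0 FPKM of Mrpl27 (17.3 to 18.9). The summed FPKM of all members in this mouse was picked out as well, at 619 against 765 to 827 in the other Sham mice. Values of tMCAO/R mouse 4 were picked out in 3 members: 21.3 FPKM of Mrpl50 (16.4 to 18.1), 4.14 FPKM of Mrpl37 (5.58 to 6.40) and 4.32 FPKM of Mrps26 (8.44 to 9.97). The last was that of tMCAO/R mouse 2, with 4.37 FPKM of Mrpl13 (3.10 to 3.51).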

How the results depend on the processing

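With the pseudocount, the minimum, quantile normalization, limma-voom or a single library changed, between 23 and 38 of the members fell, with a median log2FC of -0.44 to -0.30. Leaving out each library in turn gave 23 to 38 members that fell, 0 to 0 that rose and a median of -0.38 to -0.30. At an adjusted p below 0.01 with any fold change, 14 of the 33 members fell in each of 24 fits, the reported one included: Mrpl11, Mrpl13, Mrpl14, Mrpl20, Mrpl23, Mrpl42, Mrpl48, Mrpl55, Mrps9, Mrps15, Mrps18a, Mrps21, Mrps26 and Mrps33. Subtracting the length trend moved the count to 22 fell and 2 rose (median -0.20), and to 20 fell and 1 rose (median -0.20) when it was subtracted from scaled log2 fragments, an alternative chosen after seeing the data. In the large subunit it left 13 members that fell. Quantile normalization gave 1 that rose, and so did an adjusted p of 0.05, with 44 that fell. The share of all genes at that threshold is not given here. With a log2FC below -2 as well, 0 fell. A voom fit scaled to the total over genes outside mitochondrial DNA, also chosen after seeing the data, gave a median of -0.44. Same-numbered mice did not deviate together (correlations of -0.12 to 0.22), so the numbers do not pair them, and with the replicate number as a block 25 members fell.

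With the length trend subtracted from FPKM, 9 members changed direction, 0 of them among those that fell. These included Mrpl34 and Mrpl44, whose log2FC of -0.50 and -0.33 were not near 0. In that fit the log2FC was 0.0528 for Mrpl44, 0.0877 for Mrpl40, 0.151 for Mrps34, 0.20 for Mrpl22, 0.10 for Mrpl34, 0.16 for Mrpl50, 0.0862 for Mrpl9, 0.000697 for Mrpl37 and -0.0368 for Mrps30. With it subtracted from fragments the last 6 were 0.24, 0.15, 0.22, 0.13, 0.0164 and -0.0411. Without tMCAO/R mouse 4, limma-voom gave 0.0494 for Mrpl9, 0.0707 for Mrpl37 and -0.10 for Mrps30. For Mrps30 the value was -0.0402 with the total outside mitochondrial DNA and -0.0086 with quantile normalization. Leaving out each library in turn gave -0.0986 to 0.0455 for Mrpl9, -0.0438 to 0.0612 for Mrpl37 and -0.0683 to 0.0531 for Mrps30.

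Limits of these values include the number of fragments for the weakest members (Mrpl33, Mrps18b and Mrps18c). They also include the spread set by Sham mouse 6 and tMCAO/R mouse 4. The differences in Y-linked genes, regional markers and length given above are further limits, and their relative weight was not tested. The cause of these changes with the setting was not tested.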
